A study of Mus musculus with 14 samples.

Results

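The mouse miRNAs miR-466, miR-467, miR-669 and miR-297 were followed through small RNA libraries of macrophage lysates and macrophage exosomes. They were taken as every line of the deposited count table with at least 1 mature name starting with miR-466, miR-467, miR-669 or miR-297 followed by a letter or a hyphen. This gave 57 of the 1250 lines, which carry 66 mature names because 7 lines join several names. Each of the 57 lines had counts, all of them in at least 1 lysate library, 26 of them in at least 1 exosome library and 31 in no exosome library. Of the 57 lines, 14 held exactly the values of another line in all 14 libraries, 10 of these matching a line outside the set. Only 4 of those 14 had 10 or more counts: miR-467a-5p equalled miR-467b-5p (618 counts each), and miR-466a-5p equalled miR-466p-5p (14 counts each). By name, 27 lines were of the 5p arm, 24 of the 3p arm and 6 gave no arm.

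The libraries came from mouse bone marrow macrophages, tissue given as excised bone, and form 4 groups. Control lysates (3 libraries) and control exosomes (4) are labelled as wild type controls. IL4 lysates (3) and IL4 exosomes (4) are labelled as stimulated macrophages and carry IL4 in their titles, IL4 being the cytokine that drives alternative macrophage activation. Exosomes are small vesicles that cells release, and were isolated from the medium with an OptiPrep gradient. The labels used here name no strain, age, IL4 dose or time. They do not say which libraries share animals, so a p-value is relative to the spread of these libraries alone, part of which may be technical. Replicate numbers stand for the dates in the titles, which an IL4 and a control library of the same compartment share, and no date is common to lysates and exosomes. Total counts ran from 3941480 to 6792079 in lysates and from 28417 to 411671 in exosomes, so a single count stands for 35.2 CPM (counts scaled to a common library total) in the shallowest exosome library. Macrophage and myeloid miRNAs fixed as markers (miR-223, miR-142a, miR-21a, miR-155 and miR-511 lines) summed to 31.8% of counts in control lysates and 40.0% in IL4 lysates, and to 24.4% and 26.7% in the exosomes, means over the libraries.

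A miRNA hairpin is cut into a duplex whose strands, 5p and 3p, are named for the side of the hairpin they come from, and usually one strand is kept and the other degraded. The bases from position 2 to 8, the seed, pair with target mRNAs. The large rodent cluster that gives most of these miRNAs lies in an intron of Sfmbt2, a Polycomb group gene that is imprinted and expressed from the paternal allele in early embryos and placenta, and the cluster is known for its role in placental growth. In macrophages miR-466l has been reported to act on Il10 mRNA, and miR-467b on lipoprotein lipase mRNA.

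In the RefSeq annotation of GRCm38.p6 (the mm10 build), Sfmbt2 lies on the plus strand of chromosome 2, chr2:10370440-10595253. Of the hairpin genes matched to the lines by name, 68 lie inside it, from position 10466663 to 10518279, a span of 51.6 kb, and 6 lie elsewhere. All 68 fall in intron 10 (10461473 to 10523944) of the GENCODE transcript Sfmbt2-201. By their hairpin genes 48 lines were inside Sfmbt2 and 4 outside, 4 had genes both inside and outside, and 1 (miR-466a-5p) had no gene under its name. No line outside the set had its hairpin in Sfmbt2. The copies are unevenly spread over the lines. The joined miR-669a-5p/miR-669p-5p line has 14 hairpin genes, the miR-466b-3p/miR-466c-3p/miR-466p-3p line 11 and miR-467a 10, whereas miR-669c, miR-467c, miR-466d and miR-467e have 1 each.

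RefSeq mature sequences were matched for 4 of the 57 lines, the same 4 whose hairpins lie outside Sfmbt2, against 1051 of all 1250 lines. They are shown as the members with a matched sequence, with the seed in capitals, and do not stand for the other 53 lines:
miR-466i-3p: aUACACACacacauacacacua
miR-466k: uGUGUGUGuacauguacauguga
miR-467h: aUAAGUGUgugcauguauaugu
miR-669n: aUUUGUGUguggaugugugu
In the same build and on the plus strand these are chr13:17747552-17747573, chr3:85467396-85467418, chr9:115381898-115381919 and chr3:115979905-115979924. UGUGUGUG or ACACACAC, both searched in the mature strand only, occurred in 3 of these 4 and in 6 of the 1051 matched lines (0.571%). The 3 other lines with such a run were miR-32-3p, miR-672-5p and miR-3082-5p. The 4 lines shown were nearly silent, with 3, 3, 5 and 2 counts in all lysates and none in exosomes. The counts described next are therefore almost wholly those of lines with a hairpin in the Sfmbt2 intron.

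The family was a small part of the lysate miRNAs. Its lines held 26274 of 32986166 lysate counts. Summed over all 57 lines, control lysates held 0.0803% ± 0.00478 of counts (SD, n = 3; 0.0759% to 0.0854%) and IL4 lysates 0.0791% ± 0.0049 (n = 3; 0.0762% to 0.0847%), ranges that overlap. How reads of near-identical names were assigned is unknown, so some may be counted more than once in these sums. In 6 pairs of lines with 10 or more counts the summed difference over libraries was at most 10%, and keeping 1 line of each pair left 51 lines and 0.0599% and 0.0585%. Of all lines, 277 had a lysate mean of 10 CPM or more, and 13 of these were of the family. A further 14 lay between 1 and 10 CPM, 20 of the 57 had fewer than 10 counts over all libraries, and 26 were seen in all 6 lysates. The top line ranked 130th in lysates and 170th in exosomes.

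The highest lines were 3p strands of miR-466. The line joining miR-466b-3p, miR-466c-3p and miR-466p-3p averaged 153 CPM ± 13.0 (SD, n = 6 lysates): 130, 168.1 and 154.04 CPM in control lysates and 150, 162 and 152 CPM in IL4 lysates. The line of miR-466a-3p and miR-466e-3p averaged 151 CPM ± 13.7. These lines hold 5204 and 5155 counts and were equal in 8 of 14 libraries, so they are no separate measures. Among miR-466 lines miR-466d-3p came next (36.9 CPM ± 5.49), whereas miR-466g, which names no arm, stood at 9.37 CPM. miR-466l-3p, the member linked to Il10, had 7 counts in all, of which 1 and 5 were in IL4 lysates 1 and 3 and 1 in control exosome 3.

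Among miR-669 lines, miR-669c-5p led with 105.7 CPM ± 19.8 and miR-669a-5p/miR-669p-5p followed with 77.3 CPM ± 10.99 (n = 6 lysates). miR-669c-5p read 140, 92.5 and 85.8 CPM in control lysates and 100.98, 116 and 98.5 CPM in IL4 lysates, so the control values enclose those with IL4. Its lysate SD was the widest of the family, and its highest and lowest values were both controls. miR-669o-5p (14.2 CPM ± 1.63) and miR-669l-5p (13.3 CPM ± 2.80) were lower. Of the miR-467 lines, miR-467c-5p averaged 40.2 CPM ± 8.88, miR-467e-5p 32.3 CPM ± 5.53 and miR-467a-3p 31.9 CPM ± 4.49. miR-467d-3p (1098 counts against 1100) is a near copy of miR-467a-3p. The equal lines miR-467a-5p and miR-467b-5p, the latter the name linked to lipoprotein lipase, averaged 18.6 CPM ± 2.90. Neighbours from miR-467c-5p down to miR-467d-3p lay within 1 SD of each other. By root, miR-466 lines held 46.6% of the family's lysate counts, miR-669 lines 30.0%, miR-467 lines 22.5% and miR-297 lines 0.963%. The plot of levels by library shows the 8 leading lines, near copies left out, in all 14 libraries.

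**Figure D1:**
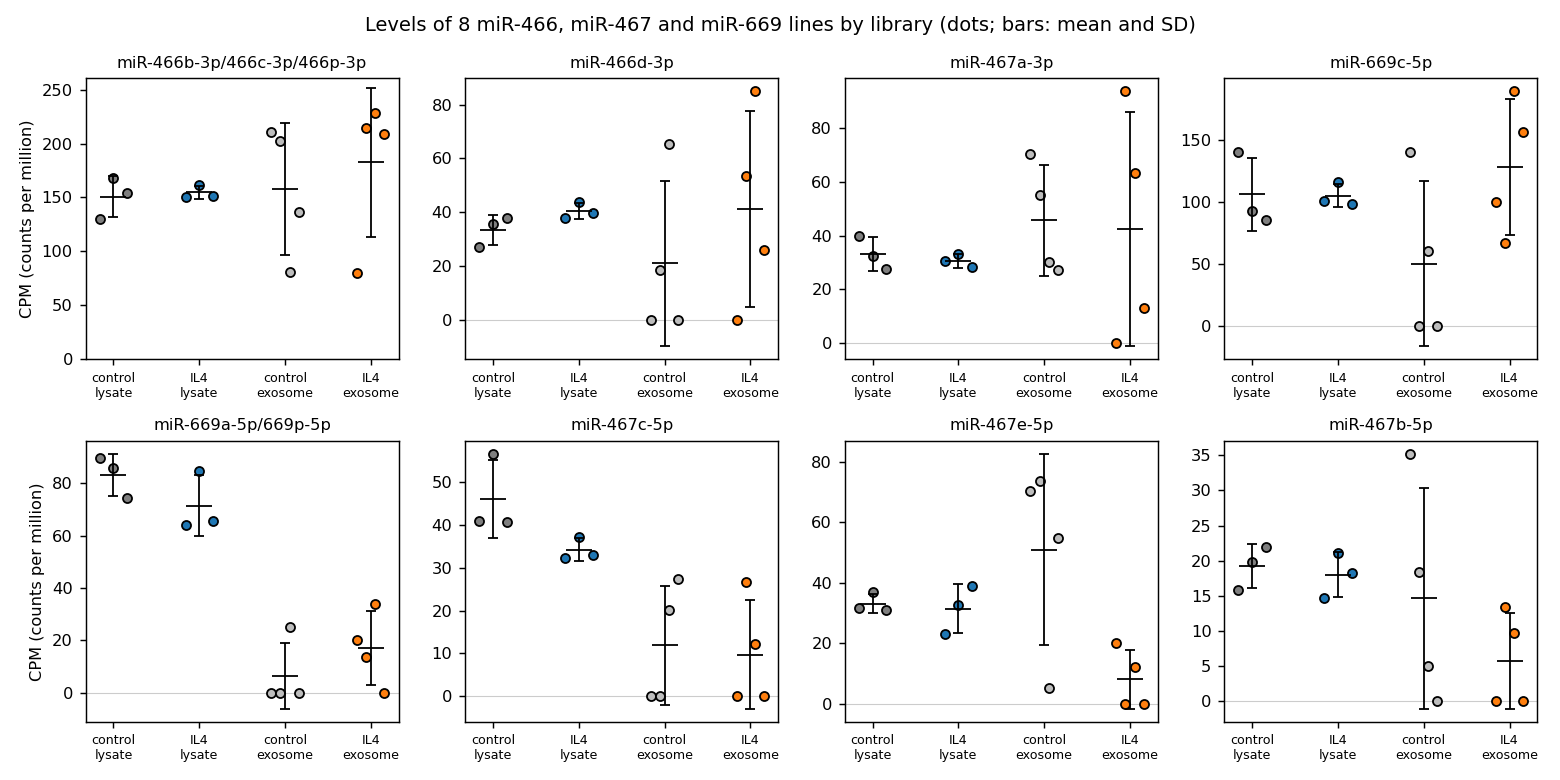
Level in CPM (vertical axes, linear) of 8 lines in each library, by group (horizontal axes); dots are libraries and bars the mean and SD of 3 lysates or 4 exosome libraries. miR-669a-5p/miR-669p-5p and miR-467c-5p sit lower in every exosome library than in every lysate, while the exosome values of miR-466b-3p/miR-466c-3p/miR-466p-3p (79.9 to 228 CPM) surround the lysate values.

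The strand that was kept differed between roots. For 25 hairpin names the table has a line for either arm. In lysates the 3p line was the larger for 7 of 8 miR-466 names, for 3 of 3 miR-297 names, for 2 of 4 miR-467 names and for 1 of 10 miR-669 names. miR-466d had 1202 lysate counts on its 3p line and 2 on its 5p line, a 3p share of 99.8%. miR-669b was the other way round, with 1 count on the 3p line and 257 on the 5p line. miR-467c (12 against 1352 counts, 0.880% 3p) and miR-467e (10 against 1064, 0.931%) kept the 5p strand. miR-467d (1052 against 151, 87.4%) and miR-467a (1054 against 610, 63.3%) had more of the 3p strand. Names that share a joined line share its counts, so these are not independent cases. On 3p they are miR-466b, miR-466c and miR-466p, miR-466a and miR-466e, and miR-669a and miR-669o. On 5p they are miR-669a and miR-669p, and miR-466b and miR-466o. The 3 of 3 miR-297 names all rest on 1 joined 3p line of 207 lysate counts. Both joined miR-466-3p lines are near copies of each other, so miR-466a, miR-466b, miR-466c, miR-466e and miR-466p are no separate cases. The 3p lines of miR-467a and miR-467d are near copies too. miR-669c has a 5p line only.

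**Figure D2:**
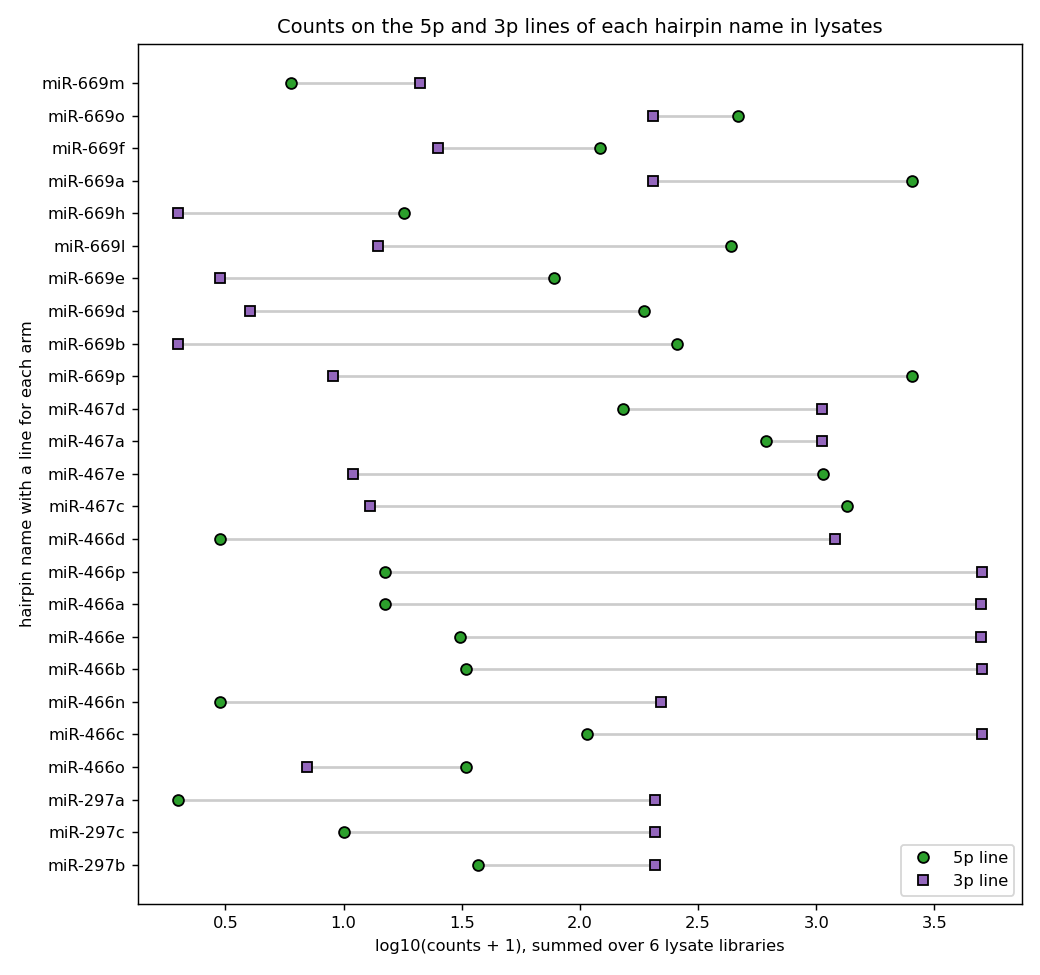
Counts summed over 6 lysate libraries, as log10(counts + 1) (horizontal axis), on the 5p line (circle) and the 3p line (square) of 25 hairpin names (vertical axis). The squares lie to the right for 7 of 8 miR-466 names and the circles for 9 of 10 miR-669 names.

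The first comparison asked what IL4 changed in the cells. No line of the family was called in lysates. Of the 57 lines 24 passed the filter on low counts, and edgeR's quasi-likelihood test called 0 of them at an adjusted p of 0.05 (Benjamini-Hochberg over 443 lines), with 1 at an unadjusted p under 0.05. DESeq2 also called 0, with 1 unadjusted. Over all 443 lines 7.22% were called, 5.87% higher and 1.35% lower. The intervals show what sizes remain possible, widest among low lines (miR-466h-3p, -0.49 to 2.02). For miR-466b-3p/miR-466c-3p/miR-466p-3p the log2 fold change (IL4 over control) was 0.22 (SE 0.24, 95% interval -0.32 to 0.77), for miR-669c-5p 0.21 (-0.31 to 0.73), for miR-669a-5p/miR-669p-5p -0.02 (-0.54 to 0.51) and for miR-467b-5p 0.10 (-0.57 to 0.77).

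The line with the lowest p was miR-669a-3p/miR-669o-3p, the weaker strand of the miR-669a hairpins. It read 4.35, 2.80 and 4.35 CPM in control lysates and 14.7, 3.55 and 6.62 CPM in IL4 lysates. IL4 lysate 1 stands far above the rest, and IL4 lysate 2 lies inside the control range. Its log2 fold change was 1.29 (SE 0.50, adjusted p = 0.252 by edgeR), and 0.75 to 1.59 over the alternatives tried. miR-669d-5p had 5.22, 4.86 and 4.17 CPM in controls against 7.18, 7.36 and 5.65 CPM with IL4, groups that do not overlap (log2 0.69, SE 0.32, adjusted p = 0.382). miR-466d-3p had 27.1, 35.6 and 37.7 CPM against 37.8, 43.6 and 39.5 CPM, also without overlap (log2 0.45, SE 0.26, adjusted p = 0.555). The remaining lines of lowest p were miR-466g (log2 0.56, adjusted p = 0.490) and miR-466h-3p (log2 0.76, adjusted p = 0.745).

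In CPM, 2 of 24 lines (miR-466d-3p and miR-669d-5p) were higher in every IL4 lysate than in every control, where 8.8% of all tested lines were, and 3 (miR-466n-3p, miR-467c-5p and miR-669o-5p) were lower in every one, where 15.3% were. miR-467c-5p, for example, read 41.0, 56.7 and 40.8 CPM in controls and 32.3, 37.3 and 33.1 CPM with IL4. With TMM scaling its log2 fold change was -0.25 (SE 0.26), and that of miR-669o-5p was 0.00. After TMM scaling 19 of the 24 fold changes were above 0, with a median of 0.15, against 223 of 443 and a median of 0.00 over all lines. Copies count as separate lines here. Both miR-466-3p lines, miR-467a-3p and its near copy miR-467d-3p, and the equal lines miR-467a-5p and miR-467b-5p were all above 0. Scaled by library size alone, 10 of 24 were above 0 and the medians were -0.08 and -0.19, so the sign of several of these small values depends on the scaling. Macrophage and myeloid markers summed to a larger share of counts with IL4 in lysates (34.3% to 44.7% against 28.6% to 34.8%). Most of that sum was miR-21a-5p (log2 0.63, edgeR adjusted p = 0.220), and the list did not move as a group. miR-511-3p was called higher (log2 1.42), whereas miR-223-3p and miR-223-5p were called lower (-1.24 and -2.11). Uncalled were miR-155-5p (-1.06), miR-142a-3p (-0.05) and miR-142a-5p (-0.24). The part of these markers in the family's values was not tested.

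**Figure D3:**
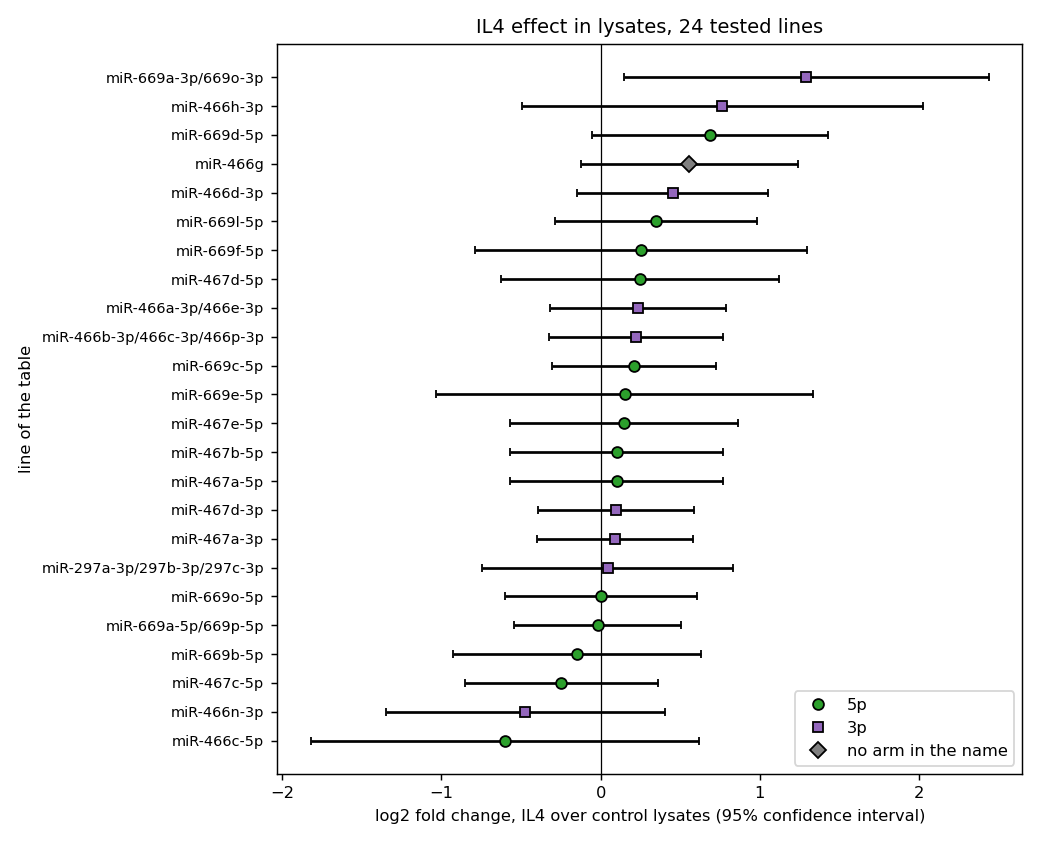
Log2 fold change of IL4 over control lysates (horizontal axis) with 95% confidence intervals for the 24 tested lines (vertical axis), marked by arm. The interval of miR-669a-3p/miR-669o-3p (0.15 to 2.44) alone leaves out 0 and its adjusted p is 0.252.

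The second comparison asked whether IL4 changed the exosome content. Of the family, 745 of 931477 exosome counts were on 26 lines, and only both miR-466-3p lines were seen in all 8 libraries. These 2 lines alone passed the filter, and edgeR called 0 of 2 (0 at an unadjusted p under 0.05, DESeq2 also 0), where 0.549% of the 182 tested lines were called. miR-466b-3p/miR-466c-3p/miR-466p-3p read 211, 202, 80.4 and 137 CPM in control exosomes (38 counts) and 79.9, 214, 228 and 209 CPM with IL4 (130 counts). The groups overlap, as they do for the near copy, where 6.04% of all tested lines did not overlap (2.75% higher and 3.3% lower with IL4), and their lowest libraries are nearly equal. The log2 fold change was 0.47 (SE 0.49, interval -0.63 to 1.56, adjusted p = 0.862), and that of the near copy miR-466a-3p/miR-466e-3p 0.39 (SE 0.49, adjusted p = 0.862). Without the filter 26 lines were tested, and 0 were called, with 1 at an unadjusted p under 0.05.

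Summed over the family, control exosomes held 0.0612% ± 0.0187 of counts (n = 4; 0.0437% to 0.0845%, 174 counts) and IL4 exosomes 0.0750% ± 0.0354 (n = 4; 0.0320% to 0.105%, 571 counts). The IL4 library was the higher on 3 of 4 dates. By root, the difference between the group means in CPM was widest on miR-669 lines: 141 CPM or less in each control library (mean 57.8 ± 69.8) and 140 to 267 CPM in IL4 libraries (mean 194 ± 58.1). The groups met at those values, and the control sum rests on 22 counts. miR-669c-5p held most of these miR-669 counts, with 4, 0, 12 and 0 counts in control exosomes and 5, 5, 78 and 12 counts with IL4. miR-467e-5p ran the other way, at 70.4, 73.6, 5.02 and 54.7 CPM in controls and 19.99, 0, 12.1 and 0 CPM with IL4, from 9 and 6 counts. Of the markers of other cell types, the erythroid, endothelial, stromal and lymphocyte sums were lower in the IL4 than in the control exosome library on 4 of 4 dates. Means in controls and with IL4 were 4.01% and 2.51% (erythroid), 1.65% and 1.03% (endothelial), 0.354% and 0.257% (stromal) and 0.147% and 0.0953% (lymphocyte). The muscle and liver sums were lower on 3 of 4 dates and the epithelial sum on 2 of 4. No tested line of these lists was called (lowest edgeR adjusted p = 0.684). Dlk1-Dio3 lines had means of 1.25% and 0.765%. Their part in the family's values was not tested. At these depths a line at 0 is not shown to be absent. A count of 0 over all control exosomes allows up to 9.42 CPM.

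The third comparison set exosomes against the lysates. In bulk RNA, fewer vesicles or cells of a kind and less of a miRNA in each cannot be told apart. miR-669a-5p/miR-669p-5p and miR-467c-5p were lower in exosomes in both contrasts, miR-669c-5p in controls and miR-467e-5p with IL4, and no line of the family was called higher. Of 57 lines 9 passed the filter, and edgeR called 3 lower in control samples and 3 lower in IL4 samples. Over all 338 tested lines, 50.9% were called in controls (29.3% higher, 21.6% lower) and 49.4% with IL4 (30.2% higher, 19.2% lower), so calls were frequent throughout the table. The filter asked for 32.7 CPM in at least 3 libraries. miR-467c-5p and miR-669a-5p/miR-669p-5p passed it only through the lysates and so could hardly come out other than lower, while the other 7 lines would have passed by their exosome libraries alone. The number of lines called lower is therefore no measure of the family or of a strand.

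miR-669a-5p/miR-669p-5p showed the widest difference. It read 89.6, 85.8 and 74.2 CPM in control lysates and 0, 0, 25.1 and 0 CPM in control exosomes, a log2 fold change of -3.47 (SE 0.75, edgeR adjusted p = 0.00137). With IL4 it read 64.1, 84.7 and 65.4 CPM in lysates and 19.99, 13.4, 34.0 and 0 CPM in exosomes (log2 -2.51, SE 0.63, adjusted p = 0.00472). Every exosome library lay below every lysate, and the line was called under all 13 alternatives in either contrast, the fit without a filter included. It had 21 exosome counts in all, 19 of them in both libraries of replicate 3. The control value rests on 5 counts in control exosome 3. Without that library all control exosomes are at 0, and the fitted value of -10.7 then gives no size.

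miR-467c-5p was also lower in both contrasts. Against the lysate values given before, control exosomes had 0, 0, 20.1 and 27.3 CPM (log2 -2.54, SE 0.79, edgeR adjusted p = 0.0146) and IL4 exosomes 0, 26.8, 12.1 and 0 CPM (log2 -2.41, SE 0.76, adjusted p = 0.0159). No exosome library reached the lysate range, and the line was also called in the fit without a filter (adjusted p = 0.00481 in controls and 0.0162 with IL4). Lines lower in every exosome library than in every lysate were thus 2 of 9 in controls, both of them lines that had passed through the lysates alone, where 10.4% of all tested lines were. With IL4 they were 3 of 9, the same 2 lines and miR-467e-5p, where 7.69% were. Scaled by library size the edgeR adjusted p of miR-467c-5p was 0.115 in controls and 0.110 with IL4, and without IL4 exosome 4 it was 0.0537. miR-669c-5p was lower in control exosomes only by call, at 141, 0, 60.3 and 0 CPM (log2 -1.95, SE 0.69, adjusted p = 0.0274). Control exosome 1 reached the highest lysate, and the call was lost under 8 of 13 alternatives, with adjusted p up to 0.204. With IL4 it read 99.9, 67.0, 189 and 156 CPM in exosomes (log2 -0.37, adjusted p = 0.626). In CPM its mean there was above that of the IL4 lysates (128 against 105.2), so the sign depends on the scaling and no direction is given. miR-467e-5p was lower with IL4 (log2 -2.63, SE 0.91, adjusted p = 0.0248), a call lost under 6 of 12 alternatives, and its control contrast was -0.50 (adjusted p = 0.617).

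The 3p lines did not pass the test in either contrast. Both miR-466-3p lines had log2 fold changes of -0.85 and -0.84 in controls (adjusted p = 0.103 and 0.107) and of -0.45 and -0.52 with IL4 (adjusted p = 0.350 and 0.286). With library size scaling the IL4 values were 0.29 and 0.22, so no direction is given for them. For miR-466d-3p the values were -0.90 and -0.49, and for miR-467a-3p -0.46 and -0.14. Without TMM the median of all lines moves from -0.18 to 0.63 in controls and from -0.01 to 0.68 with IL4, and then only miR-669a-5p/miR-669p-5p was called, in either contrast.

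**Figure D4:**
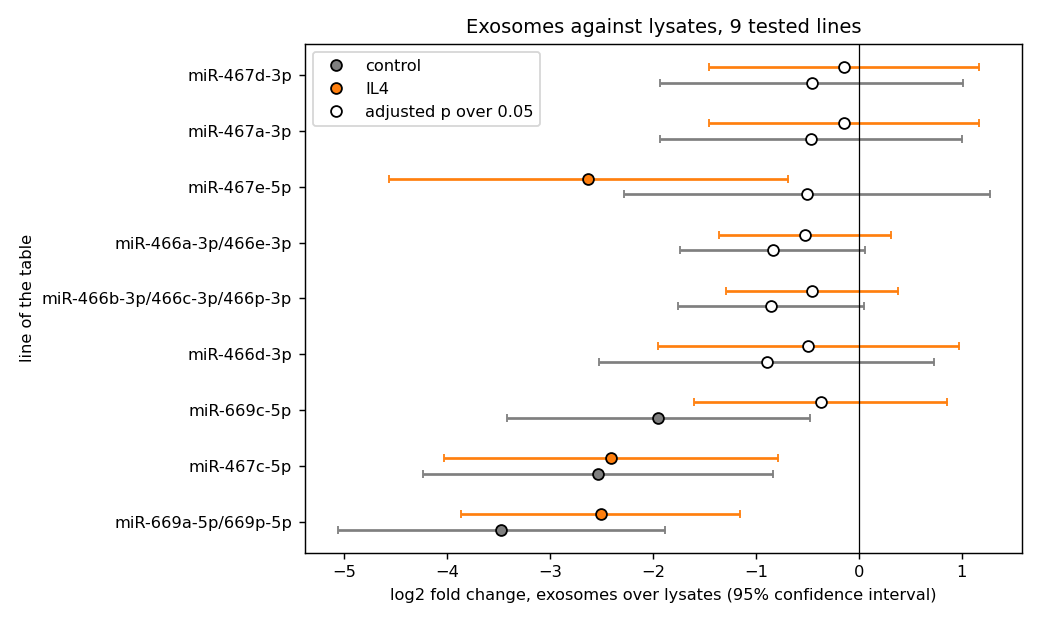
Log2 fold change of exosomes over lysates (horizontal axis) with 95% confidence intervals for 9 tested lines (vertical axis), in control and IL4 samples; filled dots have an adjusted p at or under 0.05. The filled dots run from -1.95 to -3.47, and miR-467c-5p and miR-669a-5p/miR-669p-5p, at the bottom, passed the filter only through the lysates.

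Strands were compared by sums that use every line and no filter. Summed 5p lines held 0.0331% to 0.0396% of counts in control lysates and 0.0309% to 0.0374% in IL4 lysates, and 0.00820% to 0.0282% in control exosomes and 0.0156% to 0.0291% in IL4 exosomes. All 8 exosome libraries were thus below all 6 lysates, but narrowly, the highest exosome value being 0.0291% and the lowest lysate value 0.0309%. The 5p sums rest on 44 counts in all control exosomes and 156 in all IL4 exosomes. No test was run on them. Summed 3p lines overlapped, with means of 0.0424% and 0.0439% in lysates and 0.0450% and 0.0528% in exosomes. Of the counts with an arm, the 3p strand had 49.5%, 54.9% and 56.0% in control lysates and 58.7%, 55.0% and 56.0% in IL4 lysates. In control exosomes it had 66.7%, 80.6%, 72.6% and 81.2%, and in IL4 exosomes 50.0%, 78.4%, 71.8% and 73.3%. IL4 exosome 1, with 8 of 16 counts (exact Clopper-Pearson 95% interval 24.7% to 75.3%), is the one exosome library inside the lysate range.

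Pooled over libraries, the 3p share was 53.5% and 56.7% in control and IL4 lysates and 74.3% and 72.2% in the exosomes. With near-equal lines counted once it was 41.1%, 44.7%, 65.3% and 61.8%. Without both miR-466-3p lines it was 25.2%, 28.2%, 53.7% and 48.7%, but 238 of the 304 IL4 exosome counts then came from IL4 exosome 3. By library it was 24.8% to 31.2% in lysates, 33.3%, 50.0%, 58.7% and 50.0% in control exosomes and 0%, 61.9%, 49.6% and 25% in IL4 exosomes. IL4 exosome 1 (0 of 8 counts) and IL4 exosome 4 (4 of 16 counts) were then not above the lysates. Lines outside the family moved the same way. Their 3p share was 17.7% to 23.6% in lysates and 23.4% to 34.8% in exosomes, and pooled it was 20.6% and 30.1% in controls and 18.6% and 24.8% with IL4. The family's higher 3p share in exosomes thus stands beside a higher 3p share of the other miRNAs, and the difference between these shifts was not tested.

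**Figure D5:**
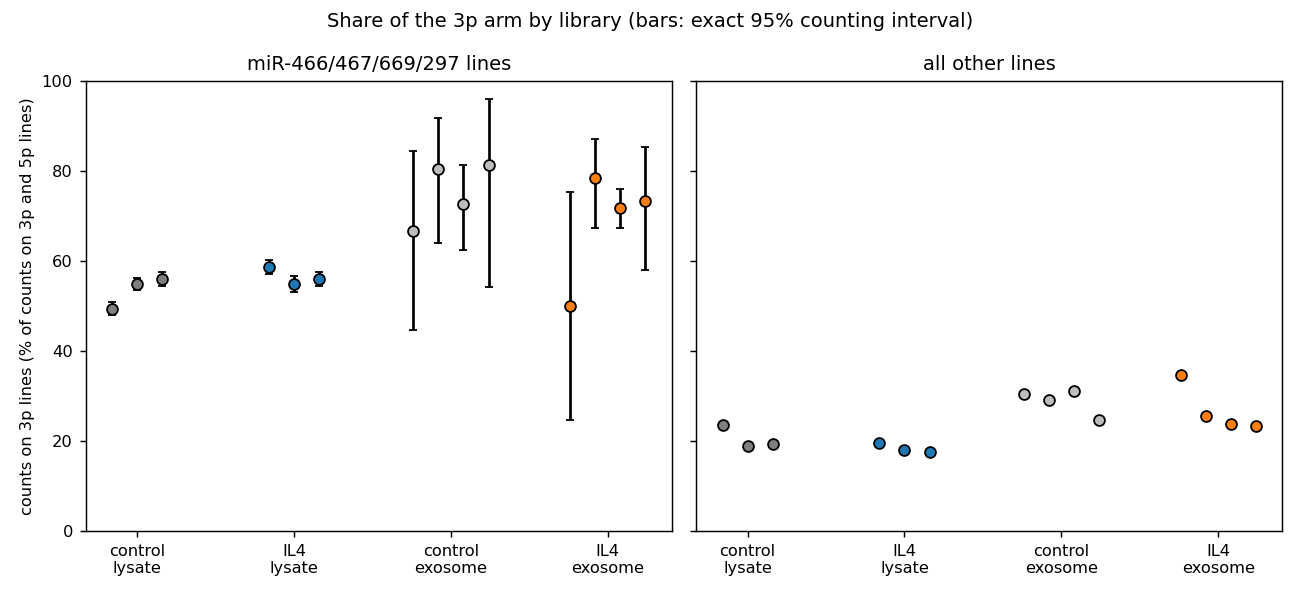
Counts on 3p lines as a percentage of counts on 3p and 5p lines (vertical axes, 0 to 100) in each library, by group (horizontal axes), for the family (left) and for all other lines (right); bars are exact 95% counting intervals, smaller than the dots on the right. Family values are 49.5% to 58.7% in lysates and 50.0% to 81.2% in exosomes.

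Depth limits how many of the lines exosomes can show. In single lysates 36 to 45 of the 57 lines had a count, and in exosome libraries 6 to 20. Brought to the smallest library (28417 counts) by the exact hypergeometric formula, 10.3 and 10.2 lines would be seen in control and IL4 lysates, and 7.38 (6.06 to 8.13) and 7.64 (4.62 to 11.4) in the exosomes. Over all lines of the table the order was the reverse, with 251 and 246 in lysates and 339 and 328.8 in exosomes. Of the 31 lines with no exosome count, none had a lysate mean above 3.13 CPM (miR-466c-5p), while a count of 0 over all 8 exosome libraries allows up to 3.22 CPM. Line by line this depth thus cannot show a difference. Their lysate means sum to 11.8 CPM, which at the summed exosome depth would be 11.0 counts where 0 were seen, but these lines were picked for having no exosome count, so no test is given.

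Other miRNAs moved much further between the compartments than this family. The microRNAs of the imprinted Dlk1-Dio3 region were higher in exosomes in all 29 of 29 tested lines in either contrast, with median log2 fold changes of 7.57 and 6.84. The list has 55 lines, and all but miR-369-3p averaged 3.42 CPM or less in lysates, under the filter's 32.7 CPM. Those tested had thus passed through the exosomes and could hardly come out other than higher, so their number is no measure of the region. Of other imprinted loci 3 of 5 tested lines were higher and none lower, all 3 at 1.31 CPM or less in lysates and under the same limit. miR-32-3p, the one repeat-holding line outside the family with 10 CPM or more in lysates (33.1 CPM), was not called (log2 -0.92 and -0.67). Markers of other cell types also moved with the compartment. Erythroid markers, 4 of 4 lines called higher in either contrast, were 0.0117% to 0.0211% of lysate counts and 2.18% to 5.53% of exosome counts. Of these lines miR-451a, miR-144-3p and miR-144-5p (lysate means 13.3, 1.95 and 0.687 CPM) also needed the exosomes to pass the filter. So did endothelial miR-126a-5p (4.78 CPM), and miR-126a-3p also averaged below the filter's 32.7 CPM in lysates (20.9 CPM). Endothelial markers (2 of 2) were 0.00134% to 0.00339% and 0.410% to 2.75%, liver miR-122-5p 0.000290% to 0.0281% and 0.0902% to 1.20%, and stromal markers 0.00245% to 0.0408% and 0.150% to 0.407%. Lymphocyte miR-150-5p was 0.000939% to 0.00281% of lysate and 0.0639% to 0.187% of exosome counts. Epithelial markers (2 of 5 tested lines called higher, 0 lower) were 0.0161% to 0.0267% and 0.0360% to 10.5%. The 2 lines called, miR-203-3p and miR-205-5p, also averaged below the filter's 32.7 CPM in lysates, so their number is no measure of the list. Uncalled were miR-200a-3p, miR-200b-3p and miR-200c-3p (log2 0.16, -0.57 and -0.33 in controls, 0.35, -0.62 and 0.38 with IL4). The epithelial list thus did not move as a group. Muscle markers were 0.000156% to 0.00127% of lysate and 0.0287% to 0.336% of exosome counts. Macrophage and myeloid markers were 28.6% to 44.7% of lysate and 21.5% to 31.8% of exosome counts. The part of these miRNAs in the lower summed share of the family's 5p lines was not tested.

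Whether IL4 acted differently in exosomes and cells was tested as an interaction. edgeR called 0 of 9 lines (0 at an unadjusted p under 0.05), and DESeq2 called 0, with 1 unadjusted. Over all 338 lines 0% were called. The estimates with the lowest p were 1.58 for miR-669c-5p (SE 0.91, 95% interval -0.36 to 3.52) and -2.13 for miR-467e-5p (SE 1.26, -4.82 to 0.57), both with an adjusted p of 0.995. Those of miR-669a-5p/miR-669p-5p and both miR-466-3p lines were 0.96, 0.40 and 0.32. Calls of miR-669c-5p in controls alone and of miR-467e-5p with IL4 alone are therefore not shown to differ between the groups. Neither interval excludes 0. The title dates, which pair IL4 and control libraries, were not entered in this fit or in its alternatives.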

How the data were processed

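The authors deposited 1 table of raw counts per mature miRNA for the whole series, which was used as deposited. Per the submitters' processing notes, cutadapt and the build mm10 were used. The aligner, counting program, miRNA annotation and use of strand cannot be read from these (not given in the sources used here), so how reads of near-identical mature names were assigned is unknown. Per the labels' protocols, libraries were made with the NextFlex small RNA kit. All 14 columns were matched by title, with 0 columns unused. Libraries of a group all differed by more than sampling noise, the smallest chi-square over its degrees of freedom being 21.0.

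IL4 was compared with control in 6 lysates (443 lines tested) and in 8 exosome libraries (182), and exosomes with lysates, and the interaction, in 1 fit of all 14 (338). The tests were edgeR 4.0.16 in R 4.3.3 (filterByExpr, TMM, glmQLFit, glmQLFTest, two-sided, Benjamini-Hochberg over all lines tested, threshold 0.05), checked on simulated data, and DESeq2 1.42.0 as an alternative. In the simulated data, changes of 1 log2 unit by IL4 were called for 25.7% of changed lines in lysates and 40% in exosomes. For the interaction it was 0%. Changes of 2 log2 units were called for 89.3%, 94.1% and 25.9%. The simulation used 1 fixed spread for every line, so these rates are not those of the family. CPM are scaled by the library's total, whereas fold changes carry TMM scaling. Each SE was computed as the size of the log2 fold change over the root of its F statistic, and so restates the test. A count of 0 allows 3 counts of the total. Intervals and floors cover counting error only, since PCR reads are not independent molecules.

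Deviations from the group mean correlated positively between libraries of the same title date (0.61, 0.26 and 0.28 in lysates, and 0.46, 0.19, 0.72 and 0.27 in exosomes). Correlations between different dates were not computed beside them, so these values do not settle how far the dates pair the libraries.

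Members and lists were chosen with earlier results of these data known. Named were lines called in any comparison, the 12 highest in lysates, the 6 with the most exosome counts, the 5 of lowest p where fewer than 5 were called, the other arms of these, miR-466l-3p and miR-467b-5p. Lines given as examples outside this rule (miR-669b for its arms, miR-466n-3p and miR-669o-5p among lines whose groups do not overlap, and lines named for their position or sequence) were chosen after their values were seen. Alternatives were other scaling, no filter, DESeq2, other sets of libraries in the fit, each replicate left out, and near-equal lines counted once. The date as a block was tried only for IL4 against control within lysates and within exosomes.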

Additional observations from a re-analysis of the deposited data

Results flagged for a closer look

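1 value stood apart from its group. For miR-466b-3p/miR-466c-3p/miR-466p-3p, IL4 exosome 1 had 79.9 CPM, from 4 counts, against 209 to 228 CPM in the other 3 IL4 exosome libraries. The gap to the nearest was 0.866 of the range, above Dixon's 95% critical value for 4 libraries. The check was run on 18 groups of 4 exosome libraries, and chance flags about 1 in 20.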

How the results depend on the processing

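For IL4 against control, no alternative called a line of the family, in lysates, in exosomes or as an interaction. With the title date as a replicate block, 0 of 24 lines were called in lysates and 0 of 2 in exosomes, and the block changed no call. In controls, the 3 lines lower in exosomes became 1 with library size scaling, 6 without the filter and 1 in a fit of the 7 libraries compared; leaving out single replicates gave 1 to 3, with 1 without control lysate 1, 2 or 3, where 8 lines rather than 9 passed the filter and miR-467c-5p was not tested (5 lines passed in the fit of 7). Without both exosome libraries of replicate 3, the deepest (an alternative chosen after seeing the data), 4 were called in controls, miR-466d-3p being added, and 3 with IL4. With IL4, the 3 lines became 1 with library size scaling and 5 without the filter, and leaving out single replicates gave 1 to 3, with 1 without IL4 lysate 2 or 3 or IL4 exosome 3 (8, 8 and 7 lines tested, miR-467c-5p not among them) or IL4 exosome 4. The cause of the other losses was not tested.

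Signs turned for 5 uncalled values: with library size scaling, exosomes against lysates with IL4 was 0.22 for miR-466a-3p/miR-466e-3p and 0.29 for miR-466b-3p/miR-466c-3p/miR-466p-3p. With single replicates left out, the interaction ran from -0.094 (without IL4 exosome 3) to 8.42 (without control exosome 3) for miR-669a-5p/miR-669p-5p, from -0.044 (without control exosome 3) to 0.68 for miR-466b-3p/miR-466c-3p/miR-466p-3p and from -0.12 (without control exosome 3) to 0.59 for miR-466a-3p/miR-466e-3p.

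Sums fall by construction where fewer lines are counted. Without the top line the summed share was 0.0652% in control and 0.0636% in IL4 lysates, and with near-equal lines once (chosen after seeing the data, as were the changes to the 3p share) 0.0599%, 0.0585% and, in control exosomes, 0.0390%. Lines expected at the smallest depth in control and IL4 lysates were 9.84 and 9.83 with equal lines once, 9.29 and 9.26 without the top line and 8.20 and 8.19 with near-equal lines once; in control exosomes the last pair of settings gave 6.40 and 5.04. The mean 3p share with near-equal lines once was 41.1% and 44.5% in control and IL4 lysates and 65.0% in control exosomes, and without both miR-466-3p lines 25.2%, 28.0%, 48.0% and, in IL4 exosomes, 34.1%. Exosome depth limits all these values, since 1 count is up to 35.2 CPM.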
